A study of Homo sapiens with 6 samples.

Results

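The genes described here are the 4 ID genes and 6 genes of TGF-β and BMP signaling: ID1, ID2, ID3, ID4, the inhibitory SMADs SMAD6 and SMAD7, the BMP ligands BMP4 and BMP7, and the TGF-β ligands TGFB1 and TGFB2. They were found by gene name, and all 10 were among the 44591 genes listed for each library. A2780, a human ovarian cancer cell line labelled as wild type, was grown for 48 h in serum-containing DMEM in both groups. The r-CRMP2 group (n = 3) received 40 ng/ml of recombinant human CRMP2, a cytosolic microtubule-associated protein, and the untreated group (n = 3) received none. No vehicle is named for the untreated cells, and the labels do not say whether the 3 replicates of a group were separate cultures. The p-values below therefore apply to these samples only. The comparison asks which signaling genes changed in cancer cells exposed to this protein.

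TGF-β and BMP ligands are secreted dimers that bring together type I and type II serine/threonine kinase receptors, which phosphorylate receptor-regulated SMADs. BMP receptors act mainly through SMAD1, SMAD5 and SMAD9, and TGF-β receptors mainly through SMAD2 and SMAD3, each together with SMAD4. The ID genes are classic BMP targets. Their proteins have a helix-loop-helix domain without a DNA-binding region, and by pairing with E-proteins they keep these from binding DNA. SMAD6 and SMAD7 are induced by the same pathways and inhibit them in turn, SMAD6 mainly the BMP branch and SMAD7 both branches.

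In r-CRMP2-treated cells, TGFB1 (from 235 to 506 CPM) and SMAD7 (from 11.7 to 27.7 CPM) rose, SMAD6 (from 45.1 to 18.4 CPM) fell, ID1 and ID3 fell together by a smaller step, and ID2 took a larger share of the ID transcripts. TGFB2 and BMP4 did not pass the test, ID4 was low and did not pass either, and BMP7 had too few counts to be tested. Of the 9 members that passed a filter on low counts, 3 were higher and 3 lower at an adjusted p-value threshold of 0.05 (edgeR's quasi-likelihood test, Benjamini-Hochberg adjustment over 16222 genes). Over all genes tested, 28.2% were higher and 30.1% lower by this rule, so a change as such does not set these genes apart. With a log2 fold change threshold of 1 added, TGFB1 and SMAD7 were higher and SMAD6 lower, against 5.12% higher and 8.86% lower of all genes tested. Values are given as CPM (library-scaled counts, by TMM) for comparisons between libraries, and as TPM (transcripts scaled to gene length and library) for comparisons between genes. Plotted per library, the 10 genes separate into those with and those without overlap between the groups.

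**Figure D1:**
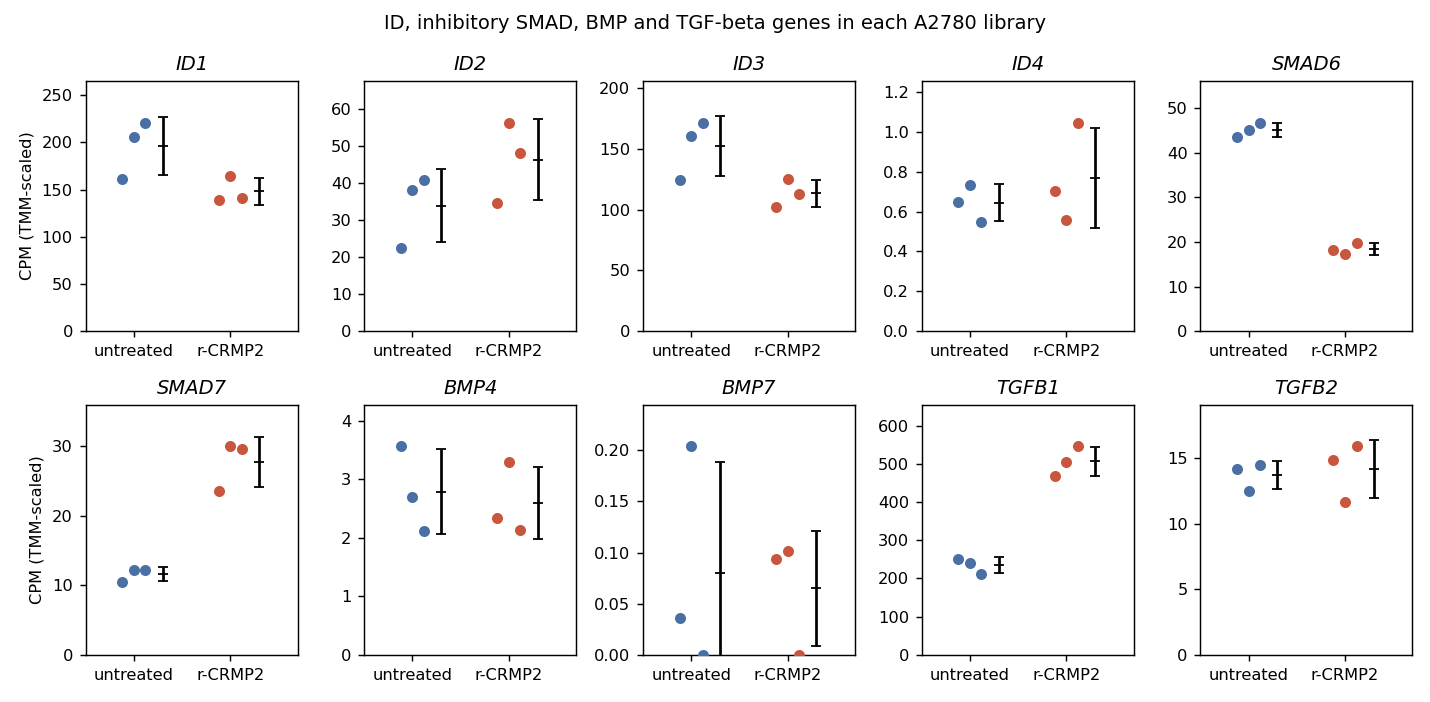
CPM (TMM-scaled, linear axes from 0) of the 10 genes in each of the 3 untreated (blue) and 3 r-CRMP2 (red) libraries; black bars are the mean and SD, with the lower end in untreated BMP7 running off the axis at 0. SMAD6, SMAD7 and TGFB1 show no overlap between the groups, while the other 7 genes overlap.

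The libraries held between 21888530 and 25711353 counts. The TMM factors were between 1.10 and 1.12 in untreated and between 0.878 and 0.922 in r-CRMP2 libraries, and over all genes tested the median log2 fold change, -0.03 after TMM, became -0.34 when only library size was used. The third r-CRMP2 library stood apart, with 22438 genes at 1 count or more against 25152 to 26302 in the others. Without it the same 3 members were lower, SMAD7 (log2 fold change 1.20) and TGFB1 (1.05) remained higher, and ID2 no longer passed. Of the epithelial markers, KRT7, KRT8 and KRT18 were abundant (665, 1266 and 1251 CPM in untreated cells), whereas CDH1 (0.125 CPM) was near 0, as were the ovarian markers WT1 (0.0739 CPM) and ESR1 (0.271 CPM). Of the 6 ovarian and Müllerian markers, only 2 had a mean under 1 CPM. Together the 6 summed to 267 to 321 TPM in untreated and 317 to 332 TPM in r-CRMP2 libraries. Of the 4 tested, 1 was higher and 2 lower, with 1 lower past the fold change threshold as well. The 6 epithelial markers summed to 4197 to 4407 TPM in untreated and 3436 to 3766 TPM in r-CRMP2 libraries. After TMM, 1 of 5 tested was higher and 1 lower, with a median log2 fold change of 0.11. The sums are of TPM, which was scaled without TMM, so they do not by themselves show a fall or rise. The 10 markers of fibroblasts summed to 278 to 318 TPM in untreated and 197 to 212 TPM in r-CRMP2 libraries, mostly from COL1A1. Of the 9 tested, 3 were higher and 3 lower. FAP, at 0.263 and 0.319 CPM, was the only 1 of the 10 with a mean under 1 CPM. The 4 endothelial markers summed to 3.61 to 3.94 TPM and 0.649 to 1.08 TPM, and the 4 leukocyte markers to 2.89 to 3.20 TPM and 1.72 to 2.24 TPM. After TMM, 1 of the 3 endothelial markers tested was lower, past the fold change threshold as well (median log2 fold change -1.41). Of the 4 endothelial markers, 3 had a mean under 1 CPM. The 1 leukocyte marker tested did not pass. The part of these markers in the results was not tested. In such bulk samples, the number of cells of a kind and the RNA per cell cannot be told apart.

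By TPM, the order of the genes changed between the groups. In untreated cells ID1 was first (388 ± 65.6 TPM, SD, n = 3), followed by ID3 (299.8 ± 52.2 TPM), TGFB1 (209 ± 16.9 TPM), ID2 (60.8 ± 18.3 TPM) and SMAD6 (36.5 ± 1.71 TPM). SMAD7 (8.27 ± 0.816 TPM), TGFB2 (5.56 ± 0.402 TPM), BMP4 (2.63 ± 0.651 TPM), ID4 (0.404 ± 0.0606 TPM) and BMP7 (0.0487 ± 0.0667 TPM) followed. With r-CRMP2, TGFB1 (359 ± 27.6 TPM) stood above ID1 (233 ± 11.3 TPM) and ID3 (177 ± 9.77 TPM), and SMAD7 (15.6 ± 1.55 TPM) stood above SMAD6 (11.9 ± 1.21 TPM). The ranges of ID1 and ID3 overlapped in untreated cells, although ID1 was above ID3 within each of the 6 libraries. All other neighbours in either order had ranges without overlap.

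ID1 (chromosome 20, 30193086 to 30194318, plus strand, in the deposited hg19 positions) had 162, 206 and 221 CPM in untreated and 139, 164 and 142 CPM in r-CRMP2 replicates 1, 2 and 3. The second r-CRMP2 library lay just above the first untreated library, so the groups overlapped. ID1 fell by 0.40 on the log2 scale (SE 0.16, edgeR adjusted p = 0.00092). ID3 (chromosome 1, 23884421 to 23886285, minus strand) had 124, 161 and 172 CPM in untreated and 102, 125 and 113 CPM in r-CRMP2 libraries. Its pattern was that of ID1, with the same libraries lowest and highest in each group, and it fell by 0.43 on the log2 scale (SE 0.16, edgeR adjusted p = 0.000784). Both passed in each of 12 other fits, with log2 fold changes from -0.72 to -0.31 for ID1 and from -0.74 to -0.33 for ID3. In TPM, which was scaled without TMM, neither gene overlapped between the groups (ID1 314 to 438 TPM against 225 to 246 TPM). With library size alone, which also leaves out TMM, the median log2 fold change of all genes tested was -0.34. The separation in TPM therefore includes a general shift.

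ID1 and ID3 kept a near constant proportion to each other. The TPM of ID1 divided by that of ID3 was 1.31, 1.29 and 1.29 in untreated and 1.37, 1.32 and 1.26 in r-CRMP2 libraries. Among 10994 genes with at least 5 CPM, ID3 was the gene nearest to ID1 in its profile over the 6 libraries, and ID1 the gene nearest to ID3. The measure was the root mean square difference of the log2 CPM values, each centred on the gene's own mean, and it was 0.036 for this pair. AGMAT (0.042) and BOLA3 (0.049) came next for ID1, and SELENOP (0.047) and MTHFS (0.054) for ID3.

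ID2 (chromosome 2, 8822113 to 8824583, plus strand) did not follow the other ID genes. It had 22.7, 38.3 and 40.9 CPM in untreated and 34.8, 56.4 and 48.2 CPM in r-CRMP2 libraries. The groups overlapped, and replicate 1 was the lowest library of each group. The change of 0.45 ± 0.34 (SE) on the log2 scale passed the threshold in edgeR's quasi-likelihood test (adjusted p = 0.0247), but not in DESeq2 (adjusted p = 0.219), with library size alone (0.13, edgeR adjusted p = 0.505) or without untreated replicate 1 (0.23), r-CRMP2 replicate 2 (0.30) or r-CRMP2 replicate 3 (0.43). With the replicate number as a block its log2 fold change was 0.47 (edgeR adjusted p = 3.28e-05), although the replicate numbers gave no evident pairing. The genes nearest to ID2 in profile were FOS (0.11), JUNB (0.14) and BORCS7 (0.17), FOS and JUNB being subunits of AP-1 that respond early to serum and growth factors. ID2, FOS and JUNB shared the order of the 3 libraries within each group, with FOS at 121, 194 and 253 CPM in untreated and 172, 275 and 255 CPM in r-CRMP2 libraries. ID1 and ID3 had this order of libraries as well, with a smaller spread.

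**Figure D2:**
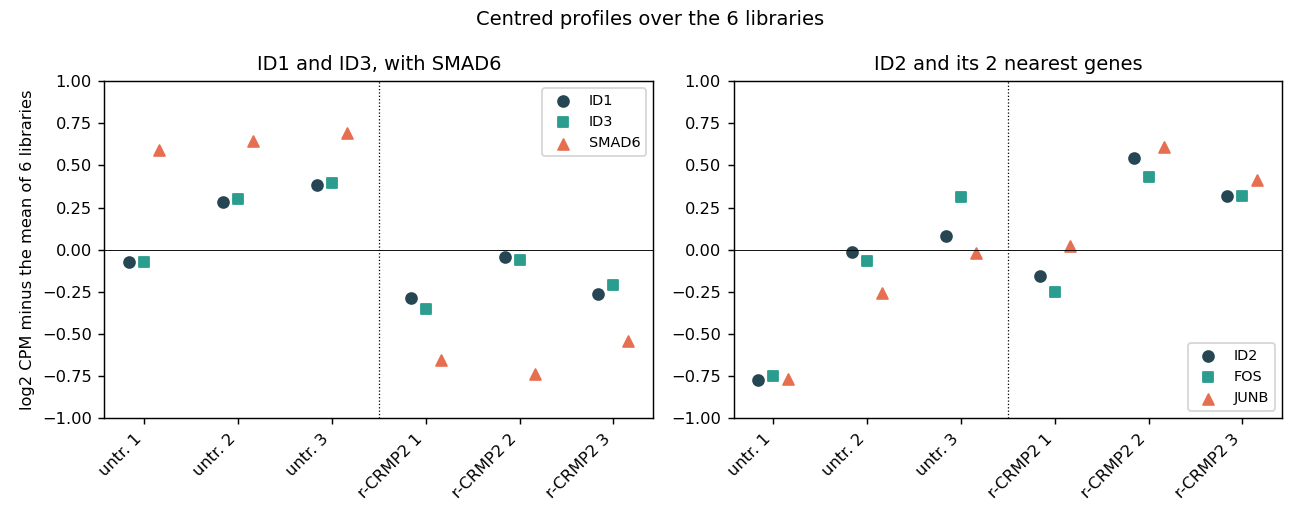
log2 CPM of each gene minus its mean over the 6 libraries (vertical axis), for each library (horizontal axis, groups parted by the dotted line). On the left, ID1 and ID3 lie close together (root mean square difference 0.036) and SMAD6 parts the groups more widely. On the right, ID2, FOS and JUNB spread from between -0.77 and -0.75 in untreated replicate 1 to between 0.43 and 0.61 in r-CRMP2 replicate 2.

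ID4 (chromosome 6, 19837601 to 19842431, plus strand) was barely expressed. It had 18, 18 and 15 counts in untreated and 15, 11 and 24 counts in r-CRMP2 libraries, or 0.548 to 1.04 CPM. The groups overlapped, and the log2 fold change of 0.27 ± 0.26 (SE, edgeR adjusted p = 0.558) became -0.02 without r-CRMP2 replicate 3, so no difference was detectable at this depth. An antisense gene listed across part of ID4 had 1, 3 and 0 counts in untreated and 0, 0 and 7 counts in r-CRMP2 libraries. The use of strand is not known, so reads of the 2 genes cannot be cleanly told apart.

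The shares of the ID genes within a library do not depend on how libraries are scaled. ID2 made up 6.69%, 8.63% and 8.62% of the summed TPM of the 4 ID genes in untreated and 11.5%, 15.0% and 14.6% in r-CRMP2 libraries. This was the largest shift in the family, 5.75 percentage points, and every r-CRMP2 library lay above every untreated one. ID1 went from 51.9% ± 0.779 to 49.0% ± 1.82 and ID3 from 40.1% ± 0.336 to 37.2% ± 0.563 (SD, n = 3 in each group). For ID1, ID2 and ID3 the two-sided exact permutation test gave p = 0.1, the smallest value that 3 against 3 libraries allow. ID4 was at 0.0407% to 0.112% (exact permutation p = 0.3).

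**Figure D3:**
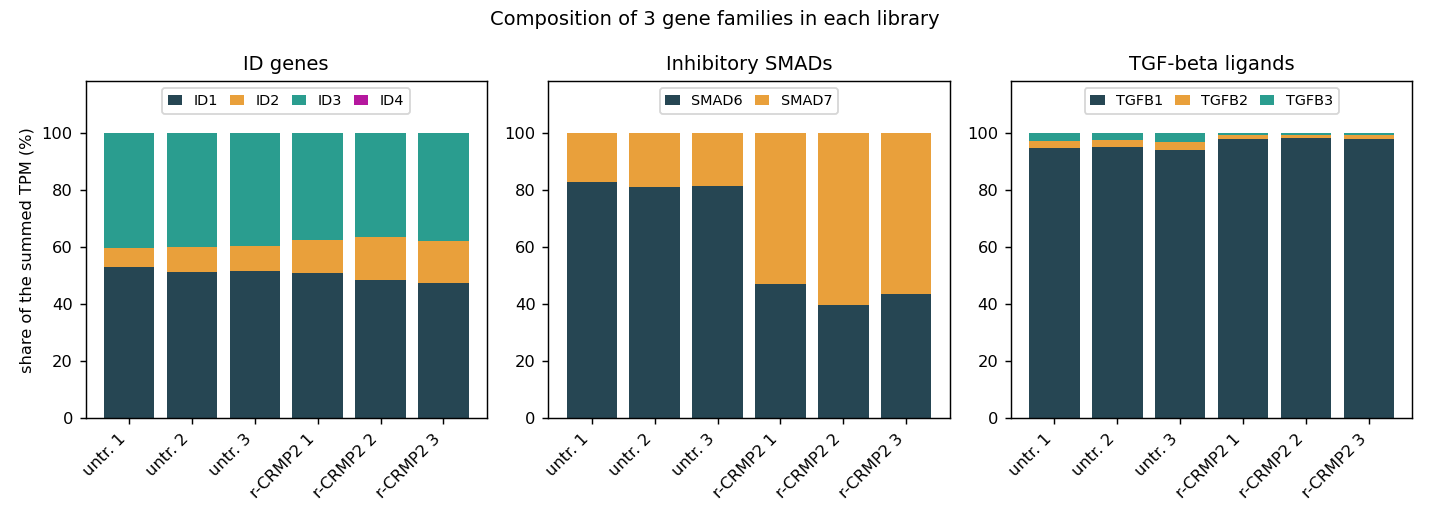
Share of the summed TPM (%) of each gene in its family, 1 bar per library, for the ID genes, the inhibitory SMADs and the TGF-β ligands. SMAD7 goes from 18.4% to 56.7% of the SMAD6 and SMAD7 transcripts on average, ID2 from 7.98% to 13.7% of the ID genes, and TGFB1 from 94.5% to 97.9% of the TGF-β ligands, while ID4 is too small to see.

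The promoters of the 3 expressed ID genes are printed because ID1 and ID3 moved together and ID2 did not. They are the 250 bases before the RefSeq start of the gene, on the gene's strand, in GRCh38.p14, a later build than that of the deposited positions. RefSeq windows were matched for 7 of the 10 genes, and those of SMAD7, BMP4 and BMP7 were not. Capitals mark every match, on either strand, of 9 short motifs: GGCGCC and CAGAC (SMAD elements), ACGTG and GCGTG (forms of the hypoxia response element), CACGTG (an E-box, which holds ACGTG), GCGGGGGCG (the EGR site), TGACG (the core of the cAMP response element), CCAAT and TATAAA.
ID1, chr20:31605039-31605288, plus strand: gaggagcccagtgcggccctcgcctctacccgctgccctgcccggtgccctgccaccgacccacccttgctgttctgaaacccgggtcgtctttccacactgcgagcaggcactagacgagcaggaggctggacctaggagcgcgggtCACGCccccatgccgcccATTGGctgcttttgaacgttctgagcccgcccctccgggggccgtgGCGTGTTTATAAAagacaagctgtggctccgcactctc
ID3, chr1:23559502-23559751, minus strand: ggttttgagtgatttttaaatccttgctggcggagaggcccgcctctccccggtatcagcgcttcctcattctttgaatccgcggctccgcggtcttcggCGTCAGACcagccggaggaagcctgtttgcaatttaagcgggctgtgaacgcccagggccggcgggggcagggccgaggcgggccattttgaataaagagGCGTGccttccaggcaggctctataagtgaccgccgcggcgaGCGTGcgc
ID2, chr2:8681806-8682055, plus strand: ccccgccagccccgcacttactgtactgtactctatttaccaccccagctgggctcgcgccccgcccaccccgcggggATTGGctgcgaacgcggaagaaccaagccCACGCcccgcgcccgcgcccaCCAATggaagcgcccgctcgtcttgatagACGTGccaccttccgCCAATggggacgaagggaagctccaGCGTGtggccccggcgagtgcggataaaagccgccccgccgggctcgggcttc

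GCGTG was found at 2 positions in each of the 3 ID windows, and in 32.2% of 35116 promoter windows of the same length. TATAAA was found in ID1 at overlapping positions on the 2 strands (10.7% of all windows) and CCAAT in ID1 and at 3 positions in ID2 (32.0%). ID3 held CAGAC (38.0%) and TGACG (21.2%), which overlap there, and ID2 held ACGTG (18.5%). None of the 3 windows held GGCGCC, which 16.4% of all windows did. The shares of all windows are not matched for base content. The motifs were chosen with the results known, and a match is a description of the letters only.

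SMAD6 and SMAD7 moved in opposite directions. SMAD6 (chromosome 15, 66994674 to 67074338, plus strand), whose protein mainly inhibits BMP receptors, had 43.5, 45.1 and 46.7 CPM in untreated and 18.3, 17.2 and 19.8 CPM in r-CRMP2 libraries. Every treated library lay far below every untreated one, and the replicates of a group lay close together. SMAD6 fell by 1.29 on the log2 scale (SE 0.07, edgeR adjusted p = 1.23e-10). SMAD7 (chromosome 18, 46446223 to 46477081, minus strand), whose protein inhibits TGF-β and BMP receptors and recruits ubiquitin ligases to them, had 10.5, 12.3 and 12.2 CPM in untreated and 23.6, 30.0 and 29.6 CPM in r-CRMP2 libraries. The groups did not overlap. Its log2 fold change was 1.25 ± 0.13 (SE, edgeR adjusted p = 7.88e-09), and with library size alone it was 0.93, under the fold change threshold but past the p-value threshold.

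The ratio of the 2 inhibitory SMADs turned over. SMAD7 was at 0.212, 0.238 and 0.229 times the TPM of SMAD6 in untreated and at 1.13, 1.52 and 1.30 times in r-CRMP2 libraries. This pair was set side by side after the values were seen and is given without a test. SMAD6, SMAD7 and TGFB1 were the 3 of the 9 members tested whose groups did not overlap, a property that 64.2% of all genes tested had (30.9% higher and 33.3% lower), so the lack of overlap alone is common here. The promoter of SMAD6 is shown because it is the member that fell most.
SMAD6, chr15:66701986-66702235, plus strand: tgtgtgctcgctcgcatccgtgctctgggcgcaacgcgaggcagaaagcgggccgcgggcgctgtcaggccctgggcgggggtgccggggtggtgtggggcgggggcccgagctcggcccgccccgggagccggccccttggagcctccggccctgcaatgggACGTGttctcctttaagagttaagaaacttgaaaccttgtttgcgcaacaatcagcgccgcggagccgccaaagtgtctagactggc

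This window held ACGTG once and none of the other 8 motifs.

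TGFB1 (chromosome 19, 41836228 to 41859788, minus strand), the main TGF-β ligand gene in these cells, had 252, 241 and 212 CPM in untreated and 468, 504 and 545 CPM in r-CRMP2 libraries. All treated libraries lay far above the untreated ones. The log2 fold change was 1.11 ± 0.10 (SE, edgeR adjusted p = 3.13e-10), or 0.80 with library size alone, and TGFB1 passed the p-value threshold in all 12 other fits. TGFB2 (chromosome 1, 218518626 to 218617961, plus strand) had 14.2, 12.5 and 14.5 CPM in untreated and 14.9, 11.7 and 15.9 CPM in r-CRMP2 libraries. The groups overlapped, with a log2 fold change of 0.05 ± 0.15 (SE, edgeR adjusted p = 0.75), which was -0.26 with library size alone. TGFB2-OT1, a transcript listed within TGFB2 on the same strand, had 40 to 75 counts, so reads of the 2 cannot be cleanly told apart. TGFB3, the third ligand of this kind and not one of the 10 genes, had 10.9, 9.74 and 10.7 CPM in untreated and 5.76, 5.86 and 7.05 CPM in r-CRMP2 libraries, and fell by 0.75 on the log2 scale (SE 0.11, edgeR adjusted p = 5.72e-05).

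Within the TGF-β ligands, TGFB1 already dominated and its share was higher with r-CRMP2. TGFB1 took 94.7%, 95.1% and 93.8% of their summed TPM in untreated and 97.8%, 98.2% and 97.8% in r-CRMP2 libraries. TGFB2 took 2.54% ± 0.353 and 1.25% ± 0.195, and TGFB3 2.92% ± 0.324 and 0.831% ± 0.0429 (SD, n = 3 in each group). Each of the 3 shares gave p = 0.1 in the two-sided exact permutation test, the smallest value possible. The promoter of TGFB1 is shown as that of the rising ligand.
TGFB1, chr19:41353923-41354172, minus strand: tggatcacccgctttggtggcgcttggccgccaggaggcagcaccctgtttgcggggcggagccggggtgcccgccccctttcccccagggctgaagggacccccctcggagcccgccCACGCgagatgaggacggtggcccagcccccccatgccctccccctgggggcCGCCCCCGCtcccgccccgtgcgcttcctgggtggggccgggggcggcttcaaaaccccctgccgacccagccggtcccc

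It held GCGTG and the EGR site GCGGGGGCG once each, both on the strand opposite to the gene, the EGR site being present in 4.72% of all windows. The TGFB1 window was 76.8% G and C, against a median of 58.0% over all windows, and the EGR site holds only these letters. The share of all windows is therefore not that of windows with a like base content.

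The BMP ligands among the 10 genes were rare. BMP4 (chromosome 14, 54416454 to 54423609, minus strand) had 3.56, 2.69 and 2.12 CPM in untreated and 2.34, 3.29 and 2.13 CPM in r-CRMP2 libraries. The groups overlapped, and the log2 fold change of -0.12 ± 0.28 (SE, edgeR adjusted p = 0.688) became 0.10 without untreated replicate 1. BMP7 (chromosome 20, 55743809 to 55841707, minus strand) had 1, 5 and 0 counts in untreated and 2, 2 and 0 counts in r-CRMP2 libraries and was not tested. A count of 0 allows up to 3 counts, or 0.108 to 0.152 CPM in these libraries, for counting error only. The BMP transcripts of these cells came mostly from other genes. BMP6 made up 50.0% ± 1.95 of the summed TPM of 10 BMP ligand genes in untreated and 66.4% ± 0.443 in r-CRMP2 libraries, and BMP5 18.4% ± 1.79 and 8.20% ± 0.537 (SD, n = 3), both named after their values were seen. BMP4 made up 2.44% ± 0.495 and 1.84% ± 0.453 (exact permutation p = 0.2) and BMP7 0.0451% ± 0.0623 and 0.0294% ± 0.0255 (exact permutation p = 0.9).

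**Figure D4:**
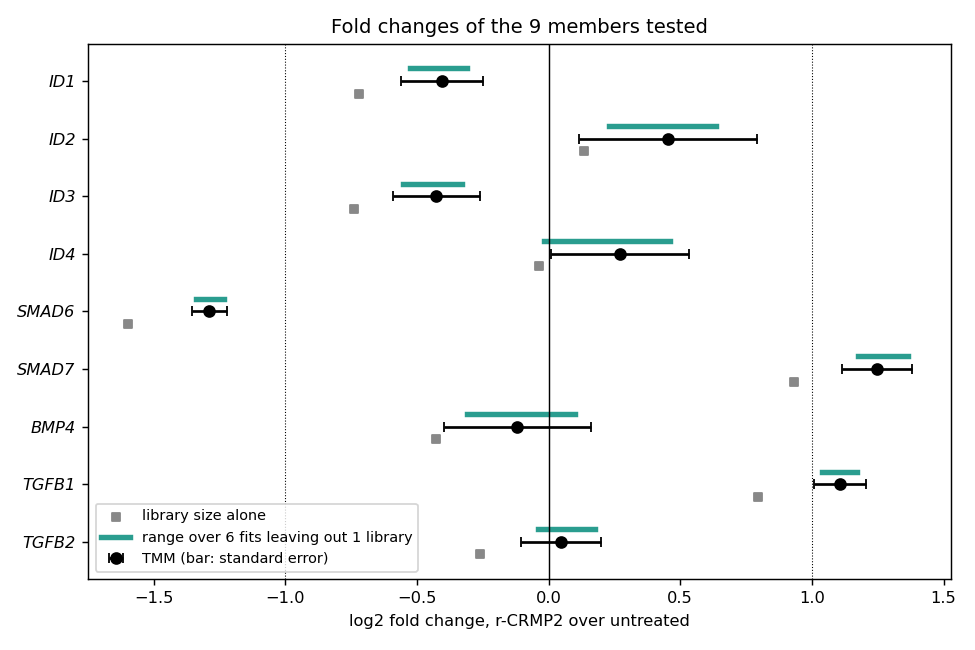
log2 fold change (r-CRMP2 over untreated, horizontal axis) of the 9 genes tested: black points with standard error from TMM scaling, grey squares from library size alone, and green bars the range over 6 fits that each left out 1 library. SMAD6, SMAD7 and TGFB1 lie beyond the dotted lines at -1 and 1 with TMM, and scaling by library size alone moves every gene to the left.

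To place these genes in their pathway, 8 lists of 125 genes in all were compared in the same way, of which 97 were tested. Of these, 42 were higher and 30 lower, with a median log2 fold change of 0.08 against -0.03 for all genes tested. The p-value threshold was passed by 74.2%, against 58.2% of all genes tested. The lists were chosen with earlier results of these data known, so the difference between these shares is not a test of the pathway. Without the 10 members, 39 of 88 were higher and 27 lower, with a median of 0.11. With library size alone 21 of the 97 were higher and 42 lower, so the balance of directions depended on scaling. In that setting, 2171 of all 16222 genes tested passed the p-value threshold as higher and 8449 as lower. Falls thus outnumbered rises among all genes there, and the library-size counts of each list below have this background. The TMM counts of each list below have the background of 28.2% higher and 30.1% lower of all genes tested. With TMM, the share of a list that passed ran from 58.8% (ligands) to 88.9% (TGF-β targets). The median of the 97 genes stood 0.10 above that of all genes with either scaling.

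Of 33 ligands of the TGF-β superfamily, 17 were tested, 4 being higher and 6 lower (median -0.12), or 2 higher and 8 lower with library size alone. With TMM, 58.8% of the 17 passed, near the 58.2% of all genes tested, so this count does not set the ligands apart. TGFB1 had the largest rise of the list and GDF6, a BMP-like growth factor of skeletal and eye development, the largest fall. GDF6 went from 3.02 to 0.730 CPM, a log2 fold change of -2.04 ± 0.15 (SE, edgeR adjusted p = 1.68e-06). Of 17 receptors and coreceptors, 13 were tested, 3 being higher and 6 lower (median -0.23), and none passed the fold change threshold. With library size alone, 0 were higher and 8 lower. ENG (endoglin), a coreceptor for TGF-β and BMP ligands, fell most, from 73.0 to 42.2 CPM (log2 fold change -0.79 ± 0.10 SE, edgeR adjusted p = 5.72e-08). Of the receptors for TGF-β itself, named after their values were seen, TGFBR1 was higher (log2 fold change 0.43) and TGFBR2 lower (-0.69), with edgeR adjusted p = 6.73e-05 and 1.11e-07.

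The 6 receptor-regulated and common SMADs were all tested, and 3 were higher and 2 lower (median 0.20), or 1 higher and 3 lower with library size alone (median -0.11). SMAD3, which carries TGF-β signals, changed most, from 81.8 to 122 CPM (log2 fold change 0.58 ± 0.05 SE, edgeR adjusted p = 2.35e-07). The SMADs that carry BMP signals, named after their values were seen, did not share a direction. SMAD1 fell from 10.8 to 8.17 CPM (log2 fold change -0.41, edgeR adjusted p = 0.00874), SMAD9 rose from 10.9 to 14.4 CPM (0.41, edgeR adjusted p = 0.00256), and SMAD5, at 77.6 and 85.6 CPM, did not pass (0.14, edgeR adjusted p = 0.0603). Secreted and membrane antagonists leaned upward, with 7 of 11 tested higher and 1 lower (median 0.54), or 4 higher and 1 lower with library size alone (median 0.23). GREM1, a secreted BMP antagonist, rose most, from 8.56 to 15.9 CPM (log2 fold change 0.90 ± 0.11 SE, edgeR adjusted p = 1.64e-06).

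Genes of TGF-β latency and activation were divided, with 4 of 8 higher and 3 lower (median 0.04), or 1 higher and 4 lower with library size alone (median -0.27). ITGB8, an integrin subunit that activates latent TGF-β, fell from 6.92 to 4.49 CPM (log2 fold change -0.62, edgeR adjusted p = 0.00112). Among 16 intracellular regulators, which include SMAD6 and SMAD7, 8 were higher and 3 lower (median 0.13), which turned over to 3 higher and 8 lower with library size alone (median -0.18). PMEPA1, a TGF-β-induced inhibitor of SMAD signaling, went from 80.8 to 176 CPM (log2 fold change 1.12 ± 0.12 SE, edgeR adjusted p = 8.02e-10).

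**Figure D5:**
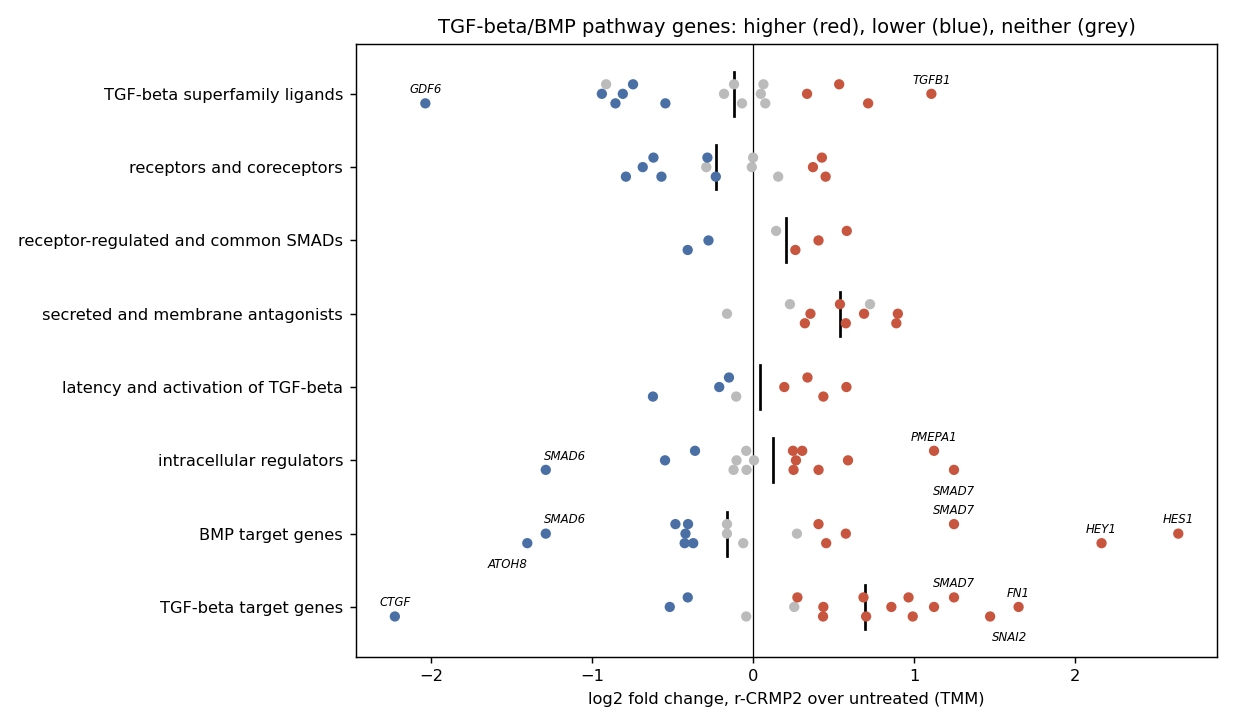
log2 fold change (r-CRMP2 over untreated, TMM, horizontal axis) of genes tested in the 8 pathway lists; red and blue points passed the adjusted p-value threshold of 0.05 as higher and lower, grey points did not, and the black bars are the medians of the whole lists. The TGF-β target genes lie furthest to the right (median 0.69) and the receptors furthest to the left (median -0.23).

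Lists of known target genes were counted for both branches, with SMAD7 in each. Of 18 genes known as TGF-β targets, all tested, 13 were higher and 3 lower (median 0.69), or 10 higher and 4 lower with library size alone (median 0.38). FN1 (fibronectin), from 525 to 1647 CPM, had a log2 fold change of 1.65 and SNAI2, a repressor of epithelial genes, of 1.47 (edgeR adjusted p = 4.19e-13 and 3e-08). CTGF, a matricellular protein gene that YAP also drives, went the other way, from 68.6 to 14.7 CPM (log2 fold change -2.23 ± 0.24 SE, edgeR adjusted p = 2.21e-10). Of the 18 genes listed as BMP targets, which include the ID genes, SMAD6 and SMAD7, 17 were tested, with 6 higher and 7 lower (median -0.16), or 3 higher and 8 lower with library size alone. HES1 (log2 fold change 2.64) and HEY1 (2.16), transcriptional repressors best known as Notch targets, rose most, with edgeR adjusted p = 2.03e-10 and 1.66e-12. ATOH8, a helix-loop-helix factor induced by BMP signals in several cell types, fell from 19.3 to 7.30 CPM (log2 fold change -1.40 ± 0.20 SE, edgeR adjusted p = 6.4e-08).

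The E-proteins, with which ID proteins pair, were all expressed. TCF12 rose from 90.5 to 126 CPM (log2 fold change 0.47 ± 0.06 SE, edgeR adjusted p = 3.84e-06) and TCF3 from 403 to 512 CPM (log2 fold change 0.34, edgeR adjusted p = 6.07e-05). TCF4 fell from 29.3 to 22.5 CPM (log2 fold change -0.38, edgeR adjusted p = 0.000633). With library size alone, 1 of the 3 was higher and 1 lower.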

How the data were processed

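Polyadenylated RNA of 3 untreated and 3 r-CRMP2-treated A2780 samples was sequenced. The authors counted reads per gene and deposited the counts without normalization. The submitters' processing notes name FastQC, HISAT2, DESeq2 and hg19, while the counting tool, annotation and use of strand are not given in the sources used here. The authors also deposited TPM values, which differed by at most 4.72e-06 from those recomputed from the counts and gene lengths. TPM was used for levels between genes and for shares.

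Counts were compared with edgeR 4.0.16 (quasi-likelihood test, TMM, edgeR's low-count filter, R 4.3.3, limma 3.58.1), group as the only term, with Benjamini-Hochberg adjustment over 16222 genes and a threshold of 0.05, with and without a log2 fold change threshold of 1. CPM uses the summed counts of the genes tested, scaled by TMM. Standard errors come from the spread of log2 CPM (prior count 2) between replicates. The edgeR test instead shares information on the spread across all genes tested, so its p-values need not follow these standard errors. The test was checked on simulated counts in which few genes changed, which does not check the scaling where many genes change. Replicates of a group differed by more than sampling noise (chi-square 3.62 to 10.3 per degree of freedom). The members and lists were chosen with earlier results of these data known. The 10 members are all reported. Of each list, the text names the genes past both thresholds (at most 5), or else the largest change past the p-value threshold, and others are marked as named after their values were seen or stand as relatives of these. Promoter windows are from RefSeq (GRCh38.p14). As alternatives, each library was left out in turn, the replicate number was added as a block, all genes or only those with 10 or more counts throughout were kept, scaling used RLE or the library sizes, and DESeq2 1.42.0 replaced edgeR. Values of some genes of the lists are not reported here and not plotted, but these genes remain in the counts and medians of their lists.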

Additional observations from a re-analysis of the deposited data

How the results depend on the processing

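When TMM was replaced by plain library sizes, every fold change moved down by about the shift of the median of all genes: the members higher past both thresholds went from 2 to 0, the pathway genes called higher from 42 to 21, ID2 to 0.13 (no longer past the p-value threshold), ID4 to -0.036 and TGFB2 to -0.26. ID2 was 0.47 in DESeq2 and not called there. Over the fits that each left out 1 library, ID2 ranged from 0.23 to 0.64, ID4 from -0.018 to 0.46, BMP4 from -0.31 to 0.10, TGFB2 from -0.041 to 0.18, and the change of the BMP7 share of the BMP ligands from -0.0383 to 0.0198 percentage points. The causes were not tested. ID1, ID3, SMAD6, SMAD7 and TGFB1 kept their direction and call in all 12 alternatives. The replicate numbers gave no evident pairing (correlations of deviations from the group means of -0.0209, 0.0038 and -0.0252 for replicates 1, 2 and 3), and with the replicate block 3 members were higher and 3 lower, as without it, with SMAD6 at -1.29, SMAD7 at 1.24 and TGFB1 at 1.11. At this depth, BMP7 and ID4 could not show a difference of modest size.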

Other observations

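Apart from the pair of ID1 and ID3, the other members with at least 5 CPM were not among the nearest genes of ID1 and ID2 by profile. For ID1, TGFB2 came at rank 6334, SMAD6 at rank 8875 and ID2 at rank 8888 of the 10994 genes compared, and for ID2, SMAD7 came at rank 5696. The genes nearest to ID4 were NFATC1 (0.12), INO80D (0.12) and PRELID2 (0.14), and TGFB2 came at rank 484 of 10995 (0.23). The low counts of ID4 limit this measure, and neither ID4 nor TGFB2 passed the test between the groups.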
